A study of Mus musculus with 11 samples.

Results

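The 31 genes described here belong to the wall of blood vessels: 25 are endothelial or act on the endothelium, from the VEGF receptor gene Kdr to Cd34, and 6 mark pericytes, from Rgs5 to Abcc9. They were taken by symbol from the 24411 genes of the expression files. All 31 were present, and all 31 were among the 14588 genes that passed the filter on low counts. Back skin was measured in 11 samples of total RNA from hosts of the strain Tg(act-EGFP)Y01Osb, which carry EGFP. In 4 samples the host had received tdTomato-positive cells and in 7 samples tdTomato-negative cells, both sorted from the femoral marrow of Pdgfra-Cre;tdTomato donors, where the tdTomato label is carried by cells that express Pdgfra or descend from such cells. Both groups were irradiated with 10 Gy, injected through the tail vein, left to recover for 6 weeks and then given 6 applications of MC903 to the back to induce atopic dermatitis, and skin was taken on day 14. MC903 is a vitamin D analog used to produce a skin inflammation of this kind. The labels give an age of 16 to 18 without a unit for every sample. Skin without MC903 and skin without a transplant were not analysed here, so the values compare donor marrow only. Marrow transplantation replaces blood cells, while the vessel wall of the skin is largely that of the host.

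Blood vessels of the skin are lined by endothelial cells and wrapped by pericytes. VEGF-A from keratinocytes and other cells acts on the endothelium through the receptors VEGFR2 (Kdr) and VEGFR1 (Flt1), and the angiopoietins act through the receptor TIE2 (Tek): angiopoietin 1 keeps vessels quiet, and angiopoietin 2, released by activated endothelium, mostly opposes it. Transcription factors of the ETS and SOX families hold the endothelial identity. In inflamed skin the vessels widen, become leaky and let leukocytes pass, and in mice the vessel network also grows and shrinks with the hair cycle.

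Depth was even, with 7190752 to 9749842 expected counts in a sample. Counts of the 31 genes ranged from 3, for Sox17 in a tdTomato-negative sample, to 1315, for Notch3. Values per sample are CPM, counts relative to the TMM-scaled total of the library. Endothelial RNA was present in every sample: the junction genes Pecam1, Cdh5, Cldn5 and Esam, which are no members, summed to between 142 and 192 CPM in the tdTomato-positive and between 96.5 and 168 CPM in the tdTomato-negative samples. These sums do not show which cells the RNA of each member came from. The samples differed most in hair follicle content. The 22 hair follicle markers summed to 3206, 580, 1008 and 14934 CPM in tdTomato-positive replicates 1 to 4. They reached only 2856 and 419 CPM in tdTomato-negative replicates 1 and 7, and 26748 to 48872 CPM in the other 5. The 12 leukocyte markers summed to 1299 and 865 CPM in tdTomato-positive replicates 1 and 2, to 518 and 562 CPM in replicates 3 and 4, and to 408 to 638 CPM in the tdTomato-negative samples.

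Mean levels of the endothelial genes were higher with tdTomato-positive marrow, by modest amounts and with overlap between the groups for most of them. All 25 endothelial genes had a log2 fold change (tdTomato-positive minus tdTomato-negative) above 0, between 0.07 for Egfl7 and 0.77 for Angpt1, with a median of 0.32. Over all genes tested the median was -0.01, and 48.6% lay above 0. Some marker lists of other cells of the skin also had higher means, with medians above that of the endothelial genes. All 6 adipocyte markers (median 0.64) and all 12 leukocyte markers (0.59) were above 0. So were all 8 fibroblast markers (0.42) and all 8 skeletal muscle markers (0.39). Medians were below the endothelial one for lymphatic (0.23), keratinocyte (0.20), smooth muscle (0.20) and erythroid markers (0.16). They were also lower for mast cell (0.08), megakaryocyte and platelet (-0.08) and bulge stem cell markers (-0.42). The 22 hair follicle markers were all below 0, with a median of -2.32. The part of tissue composition in the endothelial values was not tested other than by the hair and leukocyte scores. The 6 pericyte genes were divided, with 4 above 0, 2 below and a median of 0.26. None of the 31 passed edgeR's quasi-likelihood test at a Benjamini-Hochberg adjusted p of 0.05, as was so for all 14588 genes (0.0% called), and the smallest adjusted p was 0.248. Unadjusted, 12 of the 31 had p under 0.05, all higher, where 7.05% of all genes tested were higher at that p. The groups did not overlap in 3 members (Fli1, Angpt1 and Mcam), each higher, and in no member with the tdTomato-positive samples below, where 0.61% of all genes were apart upward and 1.06% downward. By DESeq2, 4 members were called (0.495% of all genes with an adjusted p), limma-voom called 0, and limma-voom with sample quality weights called 14 (14.3% of all genes). The lowest quality weights were those of the hair-poor tdTomato-negative replicates 1 (0.45) and 7 (0.461). Of the hair-rich tdTomato-negative samples, replicate 3 had 0.591 and replicates 2, 4, 5 and 6 had 1.44 to 1.98. How far the weights set the 14 calls was not tested. In whole skin, more vessel cells and more RNA per vessel cell cannot be told apart.

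**Figure D1:**
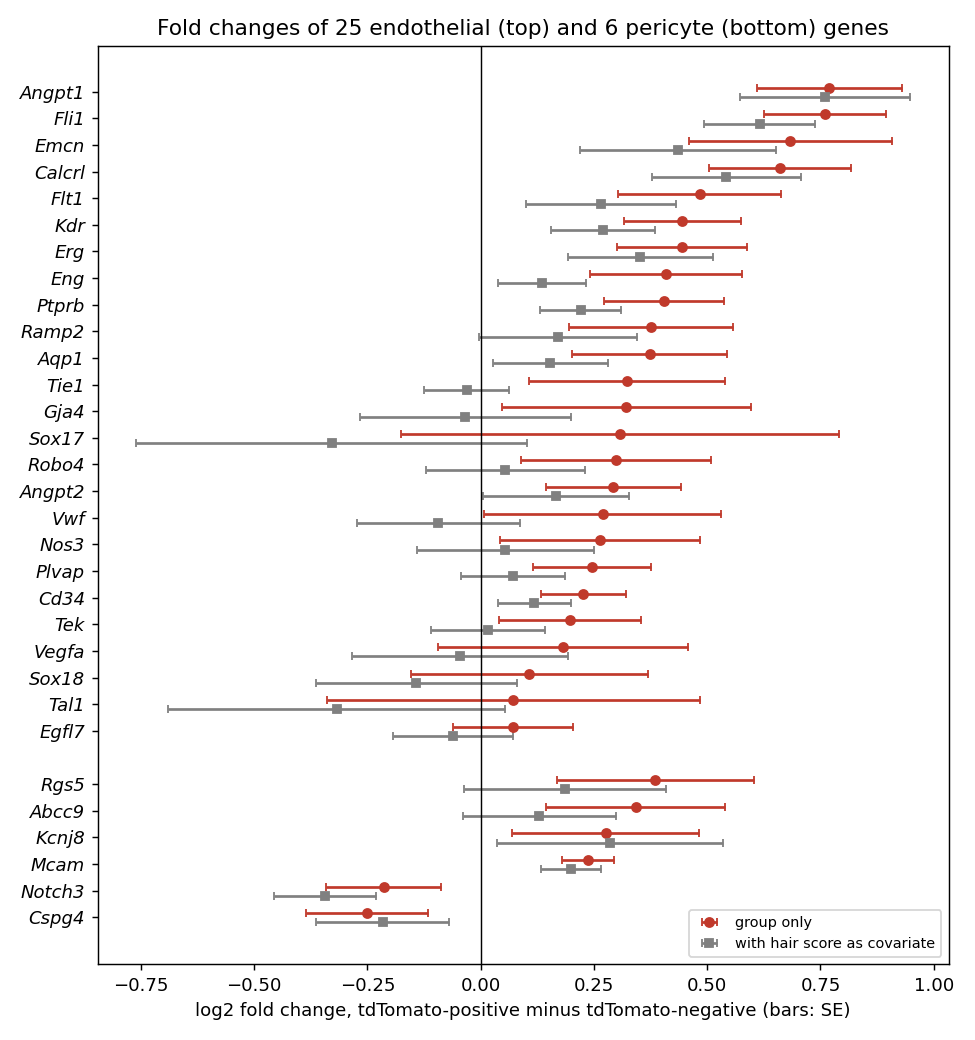
Log2 fold change of each gene (x axis, tdTomato-positive minus tdTomato-negative, with its standard error), for the 25 endothelial genes above and the 6 pericyte genes below; circles are the fit with group only, squares the fit with the hair score as a covariate. All 25 endothelial circles lie above 0, and with the hair score 17 of the 25 squares do.

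In TPM, which divides by transcript length and so allows genes to be compared, Cd34, a surface sialomucin of endothelium, fibroblasts and hair bulge cells, was the highest by median over the 11 samples at 73.1 TPM. It was followed by Rgs5, a pericyte regulator of G protein signaling, at 53.4 TPM and by Aqp1, the water channel of capillary endothelium, at 52.7 TPM, and the ranges of these 3 genes overlapped. The low end held Sox17 at 0.80 TPM, Tal1 at 1.30 TPM, Angpt1 at 2.24 TPM and Kcnj8 at 2.43 TPM. Kdr, at 9.54 TPM, stood above Flt1, at 6.70 TPM, and Tek, at 7.56 TPM, above Tie1, at 6.38 TPM, with overlapping ranges in both pairs. The spread between samples was small for Mcam, with a coefficient of variation of 2.43% in the tdTomato-positive and 4.59% in the tdTomato-negative group in CPM. It was widest for the low genes Sox17 (51.4% and 58.2% in the same order of groups) and, in the tdTomato-negative group, Tal1 (59.7%).

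**Figure D2:**
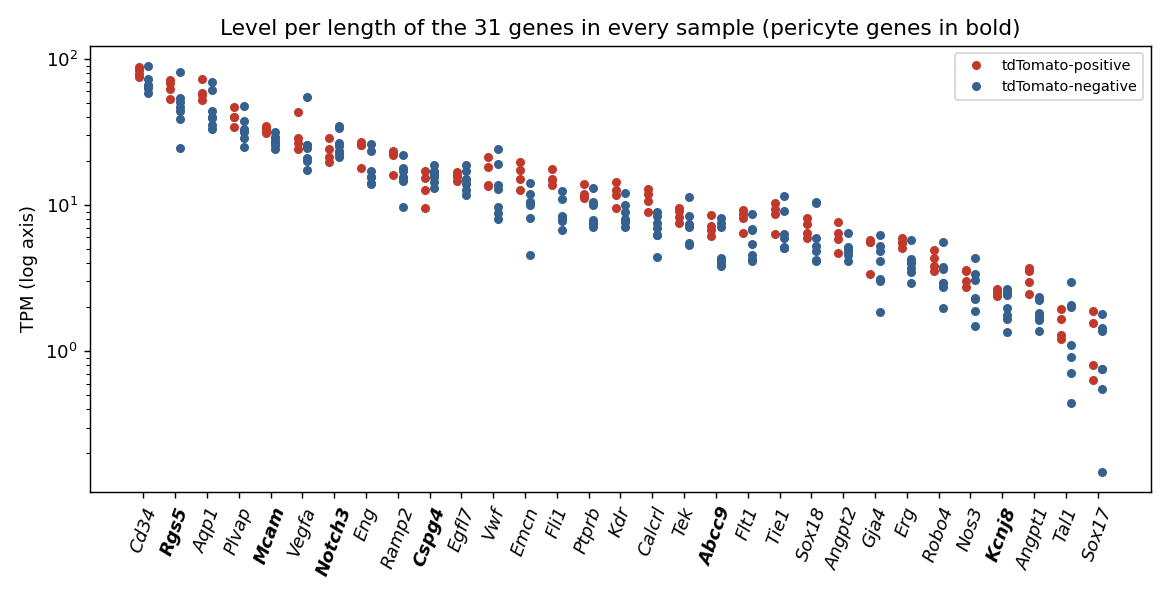
TPM (y axis, log scale) of the 31 genes in each tdTomato-positive (red, n = 4) and tdTomato-negative (blue, n = 7) sample, ordered by the median over all samples, pericyte genes in bold. Cd34, Rgs5 and Aqp1 stand at the high end and Angpt1, Tal1 and Sox17 at the low end.

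Among the VEGF genes, mean levels of both receptors were higher in tdTomato-positive skin, while the ligand varied with single samples. Kdr, the main signaling receptor, had 43.9, 40.2, 46.1 and 31.2 CPM in tdTomato-positive replicates 1 to 4, against a lowest value of 25.9, a median of 27.7 and a highest value of 38.8 CPM in the tdTomato-negative samples. Only tdTomato-negative replicate 1 (38.8 CPM) and replicate 7 (31.6 CPM) reached the level of tdTomato-positive replicate 4. The log2 fold change of Kdr was 0.45 ± 0.13 (SE), and edgeR gave an adjusted p of 0.248. Flt1, which binds VEGF-A more tightly and signals weakly, had 36.9, 35.0, 30.3 and 24.3 CPM in the tdTomato-positive replicates. In the tdTomato-negative samples Flt1 ran from 16.8 over a median of 21.8 to 32.3 CPM, so the groups overlapped, with a log2 fold change of 0.48 ± 0.18 (SE) and, from edgeR, an adjusted p of 0.254. Vegfa itself had 90.3, 50.1, 49.6 and 54.7 CPM in the tdTomato-positive replicates, against 37.0 to 104 CPM with a median of 46.9 CPM in the tdTomato-negative samples. One sample of each group stood far above the rest, tdTomato-positive replicate 1 and tdTomato-negative replicate 7, and the log2 fold change of 0.18 ± 0.28 (SE) was smaller than its error.

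In the angiopoietin system the groups were apart for the ligand Angpt1 and overlapped for the receptors. Angpt1, made by pericytes, fibroblasts and other cells around the vessel, had 10.1, 8.05, 6.17 and 9.05 CPM in tdTomato-positive replicates 1 to 4, against 3.91 to 5.98 CPM with a median of 4.65 CPM in the tdTomato-negative samples. The groups did not overlap, although tdTomato-positive replicate 3 and tdTomato-negative replicate 4 were close. These were low counts, between 29 and 81 reads per sample. Its log2 fold change was 0.77 ± 0.16 (SE), the largest of the 31 genes, with an unadjusted edgeR p of 0.000444 and an adjusted p of 0.248. Angpt1 lies on chromosome 15 (42424667 to 42676977, GRCm38.p6), and its exons overlap those of the antisense gene Gm17473, whose reads cannot be told apart from those of Angpt1 without the strand setting. Angpt2, the antagonist ligand, had 17.1, 14.3, 11.9 and 9.86 CPM in the tdTomato-positive replicates, against 9.55 to 13.2 CPM with a median of 10.8 CPM in the tdTomato-negative samples. The log2 fold change of Angpt2 was 0.29 ± 0.15 (SE).

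The balance of the angiopoietins was compared as a ratio within each sample. Angpt2 exceeded Angpt1 in CPM by 1.69-, 1.78-, 1.93- and 1.09-fold in tdTomato-positive replicates 1 to 4, against 1.60- to 2.51-fold in the tdTomato-negative samples. On the log2 scale the ratio averaged 0.67 ± 0.37 (SD, n = 4) in the tdTomato-positive and 1.16 ± 0.23 (SD, n = 7) in the tdTomato-negative group, a difference of -0.49 with a two-sided exact permutation p of 0.0242. It was 1 of 4 ratios compared, and its Benjamini-Hochberg adjusted p over the 4 was 0.097. Without tdTomato-negative replicate 4, which had the lowest ratio of its group, the difference was -0.58 with an adjusted exact permutation p of 0.0381. It was the single sample whose omission brought the adjusted p under 0.05: without any 1 of the other 10 samples the adjusted exact permutation p was 0.133 to 0.2, and without tdTomato-positive replicate 4 the difference was -0.31. The other 3 log2 ratios differed little: Flt1 to Kdr by 0.06 (exact permutation p = 0.636), Rgs5 to Kdr by -0.0018 (p = 0.927, exact permutation) and Tek to Tie1 by -0.13 (p = 0.442, exact permutation).

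Tek had 22.4, 28.2, 22.8 and 25.3 CPM in the tdTomato-positive replicates, against 16.2 to 30.9 CPM with a median of 21.0 CPM in the tdTomato-negative samples. The lowest and the highest Tek value were thus both in tdTomato-negative skin, the highest in replicate 7. Tie1, the orphan partner of Tek, had log2 fold change 0.32 ± 0.22 (SE), and 25.9 CPM in tdTomato-negative replicate 7 was again its highest value. Ptprb, the endothelial phosphatase VE-PTP that restrains Tek, had 86.1, 92.5, 100 and 83.9 CPM in the tdTomato-positive replicates. It had 55.2 to 93.6 CPM with a median of 61.6 CPM in the tdTomato-negative samples, of which only replicate 7 lay above the lowest tdTomato-positive value. The log2 fold change of Ptprb was 0.40 ± 0.13 (SE), and edgeR gave an adjusted p of 0.248.

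**Figure D3:**
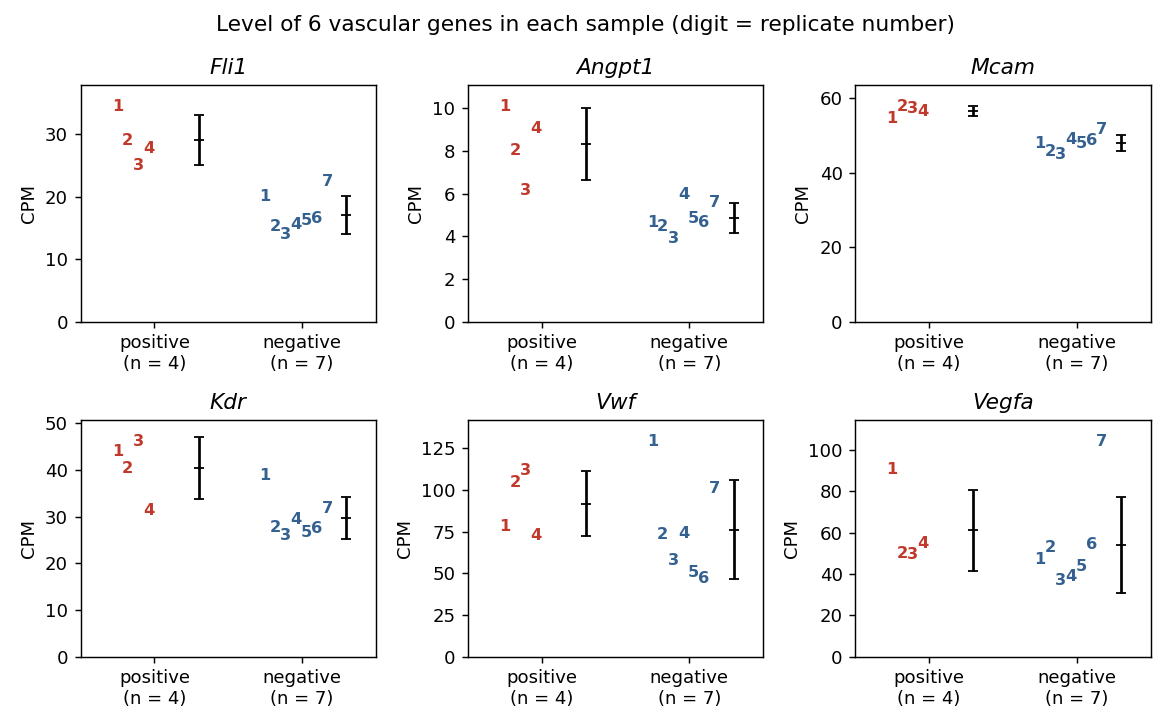
CPM (y axis, from 0) of Fli1, Angpt1, Mcam, Kdr, Vwf and Vegfa in each sample, tdTomato-positive (red) left of tdTomato-negative (blue); digits are replicate numbers, and black marks show the mean and SD. Fli1, Angpt1 and Mcam are separated between the groups, while tdTomato-negative samples reach the tdTomato-positive range for Kdr (replicates 1 and 7), Vwf (1, 2, 4 and 7) and Vegfa (2, 6 and 7).

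All 5 transcription factor genes had higher means in tdTomato-positive skin, and the groups were apart for the ETS gene Fli1 only. They overlapped for the ETS gene Erg, the SOX genes and Tal1. Fli1, which acts in endothelium and in blood cells, had 34.4, 29.0, 24.97 and 27.7 CPM in tdTomato-positive replicates 1 to 4, against 13.9 to 22.5 CPM with a median of 16.2 CPM in the tdTomato-negative samples. The groups did not overlap, and the log2 fold change was 0.76 ± 0.14 (SE), with an unadjusted edgeR p of 0.000111 and an adjusted p of 0.248. Leukocytes also express Fli1, and the leukocyte markers were highest in tdTomato-positive replicates 1 and 2, where Fli1 was highest too; the part of leukocytes in Fli1 was not tested other than by a covariate. With the leukocyte score as a covariate, a fit chosen after the data were seen, the log2 fold change of Fli1 was 0.57, at an edgeR quasi-likelihood unadjusted p of 0.000683 and an adjusted p of 0.959. Erg, the closest relative of Fli1 and more restricted to endothelium, had 9.85, 11.6, 9.97 and 10.4 CPM in the tdTomato-positive replicates, against 6.06 to 10.6 CPM with a median of 7.31 CPM in the tdTomato-negative samples. A single tdTomato-negative sample, replicate 1, reached the tdTomato-positive range of Erg, and the log2 fold change was 0.44 ± 0.14 (SE); edgeR gave an adjusted p of 0.248.

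Sox17, a factor of arterial endothelium, and Sox18, of blood and lymphatic endothelium, had log2 fold changes of 0.31 ± 0.48 and 0.11 ± 0.26 (SE). Sox17 was near the limit of these libraries, between 3 and 40 counts per sample. Tal1, a factor of blood and endothelial precursors that mast cells also express, had a log2 fold change of 0.07 ± 0.41 (SE). Its highest value, 7.34 CPM, was in tdTomato-negative replicate 1. That sample also had the most mast cell marker RNA: the 7 mast cell markers summed to 520 CPM there, against 107 to 238 CPM in the other 10 samples, and the part of mast cells in Tal1 was not tested.

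Of the letters that ETS factors such as Fli1 and Erg recognize, only the forms CAGGAA and CCGGAA were searched in the promoters. Shown are 4 promoters with a match and, for contrast, that of Mcam, without a match to either form. The shorter letters GGAA were neither searched nor marked, and they also occur in the Mcam promoter. The RefSeq table for GRCm38.p6 held 27 promoters of 21 of the 31 genes, 250 bases before to 50 after each start, and held none for Vwf, Ramp2, Plvap, Fli1, Sox17, Sox18, Ptprb, Nos3, Angpt1 and Angpt2. The letters CAGGAA, on either strand, were found in 12 of 21 promoters of endothelial members (57.1%, 11 of 15 genes), in 3 of 6 promoters of pericyte members, and in 27.2% of 13903 promoters of tested genes. The letters CCGGAA were found in 1 of the 21 (4.76%), that of Kdr, in 0 of the 6, and in 24.6% of the promoters of tested genes. ACAATG, the letters of SOX factors, were in 2 of the 21 and in 7.7% of promoters of tested genes, and GATAAG, the letters of GATA factors, in 3 of the 21 and in 5.22%. A match of letters describes the sequence and is not a measured binding site. Capitals mark CAGGAA or CCGGAA or their reverse complement in the promoters of Emcn (chr3:137340828-137341127, plus strand), Calcrl (chr2:84425217-84425516, minus strand), Tek (chr4:94739039-94739338, plus strand), Kdr (chr5:75978406-75978705, minus strand) and Mcam (chr9:44134408-44134707, plus strand), each given 5′ to 3′ along its gene. Emcn, Calcrl and Tek hold 2 CAGGAA matches each, Kdr 1 CCGGAA match and Mcam neither.
Emcn: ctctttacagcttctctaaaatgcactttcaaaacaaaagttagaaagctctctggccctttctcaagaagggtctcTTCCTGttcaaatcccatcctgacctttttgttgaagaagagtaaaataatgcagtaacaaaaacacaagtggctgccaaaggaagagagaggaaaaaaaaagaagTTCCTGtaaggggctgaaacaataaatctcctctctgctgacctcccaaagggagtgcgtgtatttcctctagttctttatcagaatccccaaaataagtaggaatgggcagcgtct
Calcrl: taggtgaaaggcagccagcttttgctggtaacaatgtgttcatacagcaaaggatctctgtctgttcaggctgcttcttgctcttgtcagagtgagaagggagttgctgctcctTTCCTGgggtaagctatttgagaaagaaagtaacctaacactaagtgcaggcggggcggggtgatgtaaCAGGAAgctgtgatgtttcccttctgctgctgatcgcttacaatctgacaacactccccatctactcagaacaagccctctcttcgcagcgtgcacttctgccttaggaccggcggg
Tek: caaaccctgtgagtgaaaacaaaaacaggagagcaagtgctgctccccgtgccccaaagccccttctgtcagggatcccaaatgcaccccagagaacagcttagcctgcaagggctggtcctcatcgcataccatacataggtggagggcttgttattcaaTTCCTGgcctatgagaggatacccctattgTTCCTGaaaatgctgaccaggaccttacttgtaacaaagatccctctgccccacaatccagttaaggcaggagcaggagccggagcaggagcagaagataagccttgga
Kdr: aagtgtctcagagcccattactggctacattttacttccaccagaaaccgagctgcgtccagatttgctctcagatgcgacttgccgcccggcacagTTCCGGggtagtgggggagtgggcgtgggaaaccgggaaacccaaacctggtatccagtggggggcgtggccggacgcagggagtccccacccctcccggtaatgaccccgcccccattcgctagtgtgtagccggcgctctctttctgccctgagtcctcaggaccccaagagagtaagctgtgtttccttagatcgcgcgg
Mcam: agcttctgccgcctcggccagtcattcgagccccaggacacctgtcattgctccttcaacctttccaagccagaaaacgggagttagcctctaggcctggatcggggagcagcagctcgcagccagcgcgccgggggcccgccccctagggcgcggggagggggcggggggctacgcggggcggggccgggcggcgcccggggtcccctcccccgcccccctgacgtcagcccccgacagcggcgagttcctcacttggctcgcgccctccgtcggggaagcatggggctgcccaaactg

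Among the endothelial surface and vessel function genes, the highest log2 fold changes were those of Emcn and Calcrl. Calcrl, the receptor that forms the adrenomedullin receptor together with Ramp2, had 38.5, 35.3, 24.7 and 30.2 CPM in tdTomato-positive replicates 1 to 4. The tdTomato-negative samples ran from 13.7 over a median of 21.2 to 25.1 CPM, so the groups overlapped only between tdTomato-positive replicate 3 and tdTomato-negative replicate 1. The log2 fold change of Calcrl was 0.66 ± 0.16 (SE), with an unadjusted edgeR p of 0.00118 and an adjusted p of 0.248. Ramp2, the accessory protein, had 9.35, 9.84, 9.45 and 6.48 CPM in the tdTomato-positive replicates, against 4.18 to 8.78 CPM with a median of 6.91 CPM in the tdTomato-negative samples. It was high in 3 tdTomato-positive samples and low in replicate 4, with a log2 fold change of 0.38 ± 0.18 (SE).

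Emcn, a sialomucin of capillary and venous endothelium, had 14.2, 15.8, 11.4 and 9.72 CPM in the tdTomato-positive replicates, against 3.91 to 10.9 CPM with a median of 8.23 CPM in the tdTomato-negative samples. The groups overlapped only between tdTomato-positive replicate 4 and tdTomato-negative replicate 1. Its log2 fold change was 0.68 ± 0.22 (SE), and edgeR gave an adjusted p of 0.248. Plvap, the diaphragm protein of fenestrated capillaries, had 47.7, 47.9, 51.6 and 38.1 CPM in the tdTomato-positive replicates, against 31.4 to 52.8 CPM with a median of 37.9 CPM in the tdTomato-negative samples. The highest Plvap value was in tdTomato-negative replicate 1, and the log2 fold change was 0.25 ± 0.13 (SE). Eng, the endoglin coreceptor of the TGF-beta family, had 57.1, 54.8, 50.4 and 35.8 CPM in the tdTomato-positive replicates and 30.2 to 51.5 CPM, median 33.7 CPM, in the tdTomato-negative samples, with a log2 fold change of 0.41 ± 0.17 (SE) and, from edgeR, an adjusted p of 0.269. Its low tdTomato-positive sample was replicate 4 and its high tdTomato-negative samples were replicates 1 and 7.

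Aqp1 had 88.5, 97.9, 113 and 89.8 CPM in the tdTomato-positive replicates, against 56.5 to 108 CPM with a median of 69.8 CPM in the tdTomato-negative samples. Cd34 had 127, 118, 124 and 107 CPM in the tdTomato-positive replicates, against 88.4 to 125 CPM with a median of 102 CPM in the tdTomato-negative samples. The groups overlapped for both genes, since tdTomato-negative replicate 7 and, for Aqp1, replicate 1 were as high as tdTomato-positive skin. The log2 fold changes were 0.37 ± 0.17 for Aqp1 (edgeR adjusted p = 0.296) and 0.23 ± 0.09 (SE) for Cd34 (edgeR adjusted p = 0.269). Cd34 is shared with other cells of the skin: the fibroblast markers summed to 8458 to 14063 CPM in tdTomato-positive and 7391 to 19003 CPM in tdTomato-negative samples, and the bulge stem cell markers to 1808 to 2242 CPM and 1252 to 2245 CPM in the same order. Most of the bulge sum was Postn, with group means of 1451 and 1026 CPM in that order, and Krt15 had 480 and 453 CPM. The other bulge markers, Lgr5, Lhx2 and Sox9, had lower means in tdTomato-positive skin, so the sum does not measure bulge content. The part of fibroblasts and bulge cells in Cd34 was not tested.

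Vwf, the clotting factor stored in endothelium and platelets, had 77.9, 104, 112 and 72.5 CPM in the tdTomato-positive replicates, against 47.1 to 129 CPM with a median of 73.2 CPM in the tdTomato-negative samples. The highest sample was tdTomato-negative replicate 1, and the log2 fold change of 0.27 ± 0.26 (SE) was about as large as its error. The 6 megakaryocyte and platelet markers used summed to 26.6 to 45.4 CPM in tdTomato-positive and 24.7 to 30.7 CPM in tdTomato-negative samples, most of it from Pf4, Itga2b and Gp1bb. The higher tdTomato-positive sums came mainly from Pf4, with group means of 22.8 and 12.7 CPM in the same order. Itga2b (7.51 and 7.97 CPM) and Gp1bb (5.43 and 6.77 CPM) had lower means in tdTomato-positive skin. The part of platelets in Vwf was not tested. The markers Gp9, Ppbp and Treml1 had at most 6 counts in any sample. Robo4, an endothelial guidance receptor, Nos3, the endothelial nitric oxide synthase, Gja4, the connexin 37 of arteries, and Egfl7, a protein secreted by endothelium, had log2 fold changes of 0.30, 0.26, 0.32 and 0.07. Their unadjusted edgeR p was between 0.179 and 0.602, and 10.2 CPM of Nos3 and 12.5 CPM of Robo4 in tdTomato-negative replicate 7 were above each tdTomato-positive sample.

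Among the pericyte genes, 4 had higher and 2 had lower means in tdTomato-positive skin. Mcam, the adhesion molecule CD146 of pericytes and endothelium, had 54.6, 57.7, 57.1 and 56.3 CPM in tdTomato-positive replicates 1 to 4, against 44.9 to 51.5 CPM with a median of 48.0 CPM in the tdTomato-negative samples. The groups did not overlap, and the difference was small, a 1.18-fold change with a log2 fold change of 0.24 ± 0.06 (SE), an unadjusted edgeR p of 0.00151 and an adjusted p of 0.248. Mcam lies on chromosome 9 (44134658 to 44142727, GRCm38.p6). Rgs5 had 71.5, 65.4, 69.9 and 52.9 CPM in the tdTomato-positive replicates, against 27.2 to 80.3 CPM with a median of 46.7 CPM in the tdTomato-negative samples. The lowest and the highest Rgs5 values were both in tdTomato-negative skin, in replicates 3 and 1, and the log2 fold change was 0.39 ± 0.22 (SE).

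Kcnj8 and Abcc9, the subunits of the potassium channel of pericytes that ATP closes, are neighbors on chromosome 6, with 16247 bases between them on GRCm38.p6. Abcc9 had 29.2, 31.9, 38.1 and 32.1 CPM in the tdTomato-positive replicates, against 18.3 to 36.0 CPM with a median of 21.8 CPM in the tdTomato-negative samples. Replicates 1, 4 and 7 of the tdTomato-negative group lay between 32.2 and 36.0 CPM, within the tdTomato-positive range, and the log2 fold change was 0.34 ± 0.20 (SE). Kcnj8 was low, with 3.12, 3.45, 3.08 and 3.11 CPM in the tdTomato-positive replicates, against 1.79 to 3.64 CPM with a median of 2.39 CPM in the tdTomato-negative samples. Its 4 tdTomato-positive values were close together, inside the tdTomato-negative range, and its log2 fold change was 0.28 ± 0.21 (SE). Abcc9 is also a subunit of the channel in muscle. The 8 skeletal muscle markers summed to 3013 to 6945 CPM in tdTomato-positive and 2074 to 7046 CPM in tdTomato-negative samples, and their part in Abcc9 was not tested.

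The lower means were those of Cspg4 and Notch3. Cspg4, the proteoglycan NG2, had 49.2, 65.9, 73.9 and 83.6 CPM in the tdTomato-positive replicates, against 67.8 to 89.2 CPM with a median of 83.9 CPM in the tdTomato-negative samples. Replicate 1 of the tdTomato-positive group was the lowest of all samples, and the other 3 overlapped with the tdTomato-negative range or lay just below it. Its log2 fold change was -0.25 ± 0.13 (SE), and edgeR gave an adjusted p of 0.356. Notch3, the Notch receptor of mural cells, had 101, 109, 135 and 117 CPM in the tdTomato-positive replicates, against 109 to 165 CPM with a median of 129 CPM in the tdTomato-negative samples. Notch3 was highest in tdTomato-negative replicates 1 and 7, and its log2 fold change was -0.21 ± 0.13 (SE), and edgeR gave an adjusted p of 0.395. Skin epithelium also expresses both genes, and the part of other cells was not tested. Summed over the 6 genes, pericyte CPM averaged 341 ± 28.3 (SD, n = 4) in the tdTomato-positive and 341 ± 38.0 (SD, n = 7) in the tdTomato-negative group. The largest parts of this sum were Notch3 (means of 116 and 134 CPM in the same order) and Cspg4 (68.2 and 81.05 CPM). The sum is thus weighted to the 2 lower genes, while the other 4 had higher means, and it does not measure pericyte content.

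Endothelial sums were lower in the samples rich in hair RNA, in both groups. The 25 endothelial genes summed to 880, 864, 872 and 722 CPM in tdTomato-positive replicates 1 to 4. They summed to 820 and 873 CPM in tdTomato-negative replicates 1 and 7, which were poor in hair RNA, and to 555 to 621 CPM in the other 5. The single hair-rich tdTomato-positive sample, replicate 4, was the lowest of its group in 15 of the 25 genes, and tdTomato-negative replicates 1 and 7 were the highest pair of their group in 16 of the 25. A hair score was the mean z-score of log2 CPM over the 22 hair follicle markers. With this score as a covariate, the slope on hair content was below 0 in all 25 endothelial genes and in 4 of 6 pericyte genes, where 51.3% of all genes had such a slope.

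With the hair score in the fit, the median log2 fold change was 0.12 for the endothelial and 0.16 for the pericyte genes, and 17 of the 25 endothelial genes stayed above 0. Hair score and group went partly together. Only replicate 4 of the tdTomato-positive group had a score above 0 (0.48), and only replicates 1 and 7 of the tdTomato-negative group had scores below 0 (-0.50 and -1.49). The fit thus separates group from hair content by few samples. In that fit edgeR called 0 genes, and 7 members were higher at an unadjusted p under 0.05 (3.13% of all genes): Kdr, Fli1, Erg, Calcrl, Ptprb, Angpt1 and Mcam. Their log2 fold changes were 0.27, 0.62, 0.35, 0.54, 0.22, 0.76 and 0.20. Notch3 was lower at that p (4.54% of all genes), at -0.34 with an unadjusted edgeR p of 0.00967. The slope of Angpt1 on hair content was -0.0083 log2 per unit of the score. Tie1, Vwf, Egfl7, Sox17, Sox18, Gja4, Vegfa and Tal1 had log2 fold changes below 0 with the hair score, between -0.33 and -0.03. With the leukocyte score in place of the hair score, the endothelial median was 0.21, and 7 members were higher at an unadjusted p under 0.05, where 1.92% of all genes were.

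**Figure D4:**
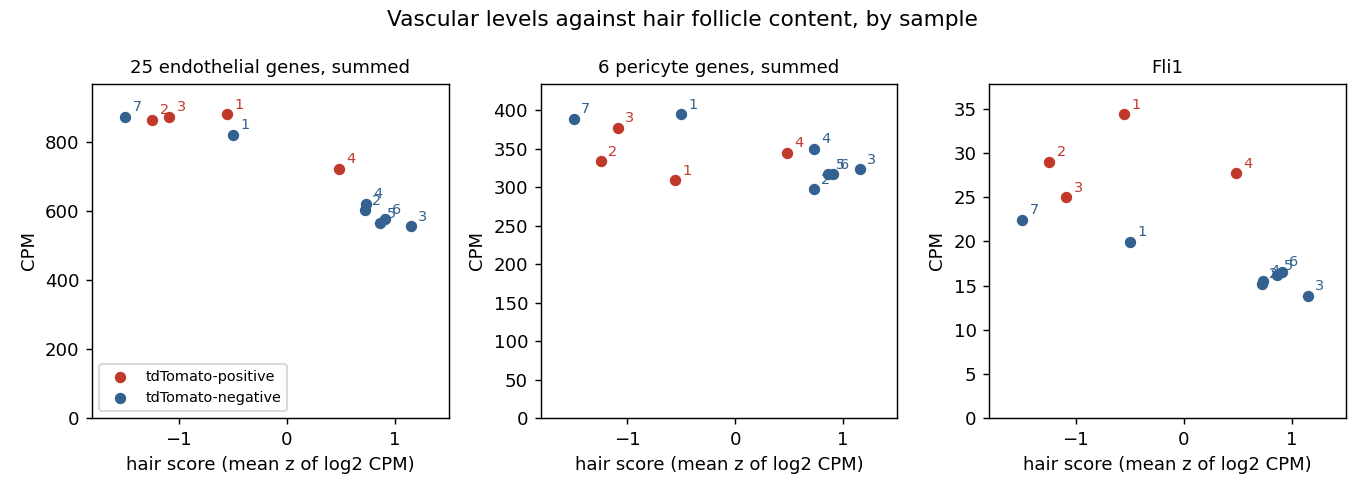
Summed CPM of the 25 endothelial genes (left), summed CPM of the 6 pericyte genes (middle) and CPM of Fli1 (right) in each sample against its hair score (x axis, mean z-score of log2 CPM); digits are replicate numbers, tdTomato-positive in red and tdTomato-negative in blue. The endothelial sum is 820 to 880 CPM in the 5 hair-poor samples of both groups and 555 to 722 CPM in the 6 hair-rich samples, while Fli1 is higher in each tdTomato-positive sample.

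Genes that signal to or within the vessel wall were looked at as a second list of 32, all tested. Of these, 26 were above 0 in log2 fold change, and the median was 0.27. None passed edgeR's test over all genes, and at an unadjusted p under 0.05 there were 5 higher and 4 lower, where 7.05% of all genes tested were higher and 9.73% lower. Nrp1, the VEGF coreceptor, had 116 ± 18.2 CPM (SD, n = 4) in tdTomato-positive and 82.9 ± 12.2 CPM (SD, n = 7) in tdTomato-negative skin. Ets1, an ETS factor of endothelium and lymphocytes, and Cav1, the caveolae protein, had log2 fold changes of 0.43 ± 0.13 and 0.57 ± 0.18 (SE). Dll4, the Notch ligand of arterial and sprouting endothelium, named after its values were seen, was the single gene of this list whose groups did not overlap, with 6.35 to 7.79 CPM in tdTomato-positive and 3.64 to 6.12 CPM in tdTomato-negative samples. The 3 lower genes with the smallest p were Notch1, Heyl and Jag2, while Dll4, Notch4, Hey1 and Hey2 of the same list had log2 fold changes of 0.48, 0.38, 0.33 and 0.34. Notch1, a Notch receptor, had 280 ± 58.7 CPM (SD, n = 4) in tdTomato-positive and 420 ± 102 CPM (SD, n = 7) in tdTomato-negative skin. Heyl and Jag2 had log2 fold changes of -1.37 ± 0.50 and -0.33 ± 0.14 (SE), and Heyl had 6.57 and 8.78 CPM in the hair-poor tdTomato-negative replicates 1 and 7, against 27.0 to 47.4 CPM in the other 5. Once hair content was fitted too, log2 fold changes came to -0.35 for Heyl, -0.29 for Notch1 and -0.25 for Jag2, and 0 genes of this list were lower at an unadjusted edgeR p under 0.05.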

How the data were processed

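Libraries were made from total RNA depleted of ribosomal RNA (RNase H) and run on a NextSeq2000, per the labels' protocols. Tools named in the submitters' processing notes are RSEM, Trim Galore and bcl2fastq, with build GRCm38. Versions, aligner and whether strand was used in counting are not given in the sources used. The deposited expected counts are RSEM's estimated read counts per gene, not normalized, per the file headers. Deposited TPM values come from the same RSEM output and are scaled by effective transcript length, per the file headers. Of the expected counts, 7.93% to 8.52% in a sample were not whole numbers (tolerance 0.005).

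The 31 members, the other gene lists and the tests were chosen with earlier results of these data known. All members are named; values per sample are given for members with an unadjusted p under 0.05, for defining endothelial markers and for each pericyte gene. Some other members are also given per sample. Of the vascular signaling list, the 3 genes with the smallest p in each direction are named.

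Expected counts were rounded to whole numbers. Genes were filtered with filterByExpr (minimum count 10, minimum total 15) and scaled with TMM, and 14588 of 24411 were tested with edgeR 4.0.16 (glmQLFit in legacy mode, glmQLFTest, two-sided) with group as the only term and Benjamini-Hochberg adjustment over all genes tested. SE was obtained as log2 fold change over the root of F. R was 4.3.3, limma 3.58.1 and DESeq2 1.42.0, which left 851 adjusted p-values as NA. The scripts were tested on simulated counts. Ratios were compared with exact permutation tests over 330 splits. No label ties a sample to an animal of its own, so the p-values reflect spread among these samples only, which may be technical. Depth limits the low genes: a count of 0 would allow up to 3 counts, which covers counting error only. Exons of 6 members (Eng, Nos3, Angpt1, Cd34, Notch3 and Abcc9) overlap a gene on the other strand and those of Egfl7 one on the same strand in GENCODE M21, so reads could be divided between them. One marker gene of another cell type is not reported here and was left out of its list.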

Additional observations from a re-analysis of the deposited data

Results flagged for a closer look

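In 102 sets of values (31 genes, 16 marker lists and 4 ratios in each group), 12 held a sample far from the rest of its group, where chance gives about 5. The sets share genes and samples, so flags can come together, and 12 against 5 cannot be read as an excess. Of the 12 flagged sets, 6 were those of 5 single vessel genes. Vegfa had 90.3 CPM in tdTomato-positive replicate 1, against 49.6 to 54.7 CPM in the other tdTomato-positive samples, and 104 CPM in tdTomato-negative replicate 7, against 37.0 to 54.2 CPM in the rest of that group. Ramp2 had 6.48 CPM in tdTomato-positive replicate 4, against 9.35 to 9.84 CPM. Kcnj8 had 3.45 CPM in tdTomato-positive replicate 2, against 3.08 to 3.12 CPM, a difference of a few reads. Erg had 10.6 CPM in tdTomato-negative replicate 1, against 6.06 to 7.99 CPM, and Cd34 had 125 CPM in tdTomato-negative replicate 7, against 88.4 to 104 CPM.

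Summed lists gave the other sets but 1. The endothelial genes summed to 722 CPM in tdTomato-positive replicate 4, against 864 to 880 CPM in the other 3, and the lymphatic markers to 112 CPM in the same sample, against 177 to 190 CPM. In tdTomato-negative replicate 1 the lymphatic markers summed to 240 CPM, against 106 to 144 CPM, the mast cell markers to 520 CPM, against 107 to 229 CPM, and the fibroblast markers to 19003 CPM, against 7391 to 11066 CPM. The log2 ratio of Angpt2 to Angpt1 was 0.67 in tdTomato-negative replicate 4, against 1.1155 to 1.33 in the rest of that group.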

How the results depend on the processing

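Of 651 log2 fold changes of single members recomputed under 21 other settings, 634 kept their direction. With the hair score as a covariate those of Tie1 (-0.031), Vwf (-0.093), Egfl7 (-0.061), Sox17 (-0.33), Sox18 (-0.14), Gja4 (-0.033), Vegfa (-0.0455) and Tal1 (-0.32) turned, and with the leukocyte score, chosen after seeing the data, those of Egfl7 (-0.017), Sox18 (-0.023), Vegfa (-0.19) and Tal1 (-0.18); the cause was not tested. Leaving out single samples turned Tal1 (-0.078 to 0.34) and Vegfa (-0.068 to 0.44), and moved by over 1.5 times Sox17 (0.033 to 0.54), Egfl7 (0.0094 to 0.14), Sox18 (0.032 to 0.26), Angpt2 (0.15 to 0.41), Cspg4 (-0.36 to -0.12), Vwf (0.16 to 0.46), Gja4 (0.21 to 0.48), Nos3 (0.17 to 0.40), Robo4 (0.21 to 0.46) and Tek (0.13 to 0.31). Over these fits the endothelial median was 0.27 to 0.44, the pericyte median 0.22 to 0.28, members called 0, genes called 0 to 3 (1 without tdTomato-negative replicate 4, 3 without replicate 7) and members higher at an unadjusted p under 0.05 were 8 to 19 (19 without tdTomato-negative replicate 7). That count was 23 with quality-weighted voom and 7 with either score as a covariate. DESeq2 called 68 genes and 4 members (Fli1, Calcrl, Angpt1 and Mcam), quality-weighted voom 2093 genes and 14 members, and the other tools and filters 0. With the replicate number as a block, edgeR called 0 genes and 10 members were higher at an unadjusted p under 0.05, with medians of 0.40 and 0.18. Same-numbered samples did not deviate together in each pair (correlations -0.042, -0.14, -0.054 and 0.338). The tdTomato-positive replicates 1 to 4 correlated best with tdTomato-negative replicates 2, 7, 1 and 6. These 4 correlations are too few to show whether the numbers pair the samples. The difference in the log2 ratio of Flt1 to Kdr was -0.031 with this block and 0.01 to 0.14 without single samples. That of Rgs5 to Kdr was 0.0004 in TPM and -0.11 to 0.058 without single samples, that of Angpt2 to Angpt1 -0.59 to -0.31 (-0.44 with the block, adjusted exact permutation p = 0.5) and that of Tek to Tie1 -0.30 to -0.02. For the ratios the block used only the 4 same-numbered pairs. The smallest exact permutation p that 4 pairs allow is 0.125 before adjustment, so that test could not reach 0.05. Low counts limit Sox17, Tal1, Kcnj8 and Angpt1.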

Other observations

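Other cells of the vessel wall, and blood, were measured by marker lists. The 8 smooth muscle markers summed to 783, 462, 935 and 697 CPM in tdTomato-positive replicates 1 to 4, against 498 to 893 CPM with a median of 673 CPM in the tdTomato-negative samples, and 4 of the 8 had a log2 fold change above 0. The largest part of this sum was Des, with means of 361 CPM in the tdTomato-positive and 265 CPM in the tdTomato-negative group. The part of skeletal muscle in Des was not tested. The 7 lymphatic markers summed to 112 to 190 CPM in tdTomato-positive and 106 to 240 CPM in tdTomato-negative samples, and Prox1, the defining lymphatic factor, averaged 3.73 and 4.15 CPM in the same order of groups. Red cell genes, a measure of blood in the skin, summed to 23.6 to 145 CPM in tdTomato-positive and 17.6 to 116 CPM in tdTomato-negative samples.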
